A study of Mus musculus with 8 samples.

Results

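Genes known from hepatic stellate cells, with Reln at their centre, were examined in the livers of adult male offspring. The 10 genes were Reln, Lrat, Des, Pdgfrb, Colec10, Colec11, Hgf, Ecm1, Dcn and Rgs5, of 22180 genes measured in all. A gene was taken from the array rows that named it alone, and from the row with the highest mean over all 8 arrays where it had several, which applied to Rgs5 (2 rows). All 10 were found. Reln was chosen by its log2 difference between HFD PN and Ctrl PN livers in earlier results of these same arrays. Its difference is therefore described and not tested, and the other 9 genes were named as its company from their known place in stellate cells.
Liver RNA came from 4 HFD PN and 4 Ctrl PN males of the C57BL/6J strain, and each liver had an Affymetrix array of its own. The HFD PN pups were suckled by dams fed a 60% high-fat diet (D12492) during lactation, and Ctrl PN offspring by dams on standard chow. Both groups were weaned onto a normal diet with no further treatment, and the livers were taken at 24 weeks, so that the groups differed by the diet of the dam in lactation. The values are log2 expression from RMA, which puts 1 number on each transcript cluster. The offspring may share litters, which the labels do not give, so that p-values measure the spread between these 8 livers only.

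Hepatic stellate cells lie between the sinusoidal endothelium and the hepatocytes. At rest they store vitamin A as retinyl esters, and after injury they lose these stores and turn into the matrix-producing cells of fibrosis. Reelin, the product of Reln, is a large secreted protein best known for placing neurons in the developing brain, where it binds the receptors Vldlr and Lrp8 and signals through the adaptor Dab1. In liver it is made by stellate cells. Lrat makes retinyl esters, Des encodes the intermediate filament desmin, and Pdgfrb is the receptor through which platelet-derived growth factor drives stellate cells to divide. Colec10 and Colec11 are soluble collectins that join in 1 complex and start the lectin pathway of complement. Hgf is a growth factor for hepatocytes, Ecm1 is a secreted glycoprotein that in mice restrains the activation of latent TGF-beta, Dcn encodes the collagen-binding proteoglycan decorin, and Rgs5 dampens G protein signalling in pericytes.
All 10 genes had a mean level above 1.55, the median of all array values. Whole liver was measured, so that fewer stellate cells and less RNA per stellate cell cannot be told apart. HFD PN replicate 1 and Ctrl PN replicate 3 stood apart from the other arrays. Among the 4452 genes of middle level, between 3 and 6 on the log2 scale, the median gene was at -0.75 on HFD PN replicate 1 and at -0.35 on Ctrl PN replicate 3 relative to the other arrays of the same group. Across genes, which are not independent replicates, the correlation of HFD PN replicate 1 with each other array was 0.945 to 0.968. The main values are given with and without these arrays.

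Reln, chosen for its difference, was lower in all HFD PN livers than in any Ctrl PN liver. None of the other 9 genes separated the groups. Over all genes, 2.1% were lower and 0.726% higher without overlap, so that 0 of 9 was near these shares. HFD PN replicates 1 to 4 had Reln levels of 4.11, 4.36, 4.45 and 3.90 on the log2 scale, against 4.91, 5.44, 4.82 and 4.97 in Ctrl PN replicates 1 to 4. The highest HFD PN liver and the lowest Ctrl PN liver were 0.37 apart. Reln averaged 4.21 ± 0.25 in HFD PN and 5.03 ± 0.28 in Ctrl PN livers (SD, n = 4 each), a log2 difference of -0.83 (standard error 0.17) or 0.563-fold, the 7th lowest of all genes. Lower genes with an unadjusted p under 0.01 made up 0.361% of all genes, and lower genes whose groups did not overlap made up 2.1%. Reln had both marks, and since it was taken up for this difference nothing is read from them, while at an adjusted p under 0.05 limma called 0% of genes. The difference was about as large without the arrays that stood apart. Without HFD PN replicate 1 it was -0.80, without Ctrl PN replicate 3 it was -0.90, and without both, a choice made after seeing the data, it was -0.87. It was -0.80 with median centring and -0.85 with quantile normalization.

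**Figure D1:**
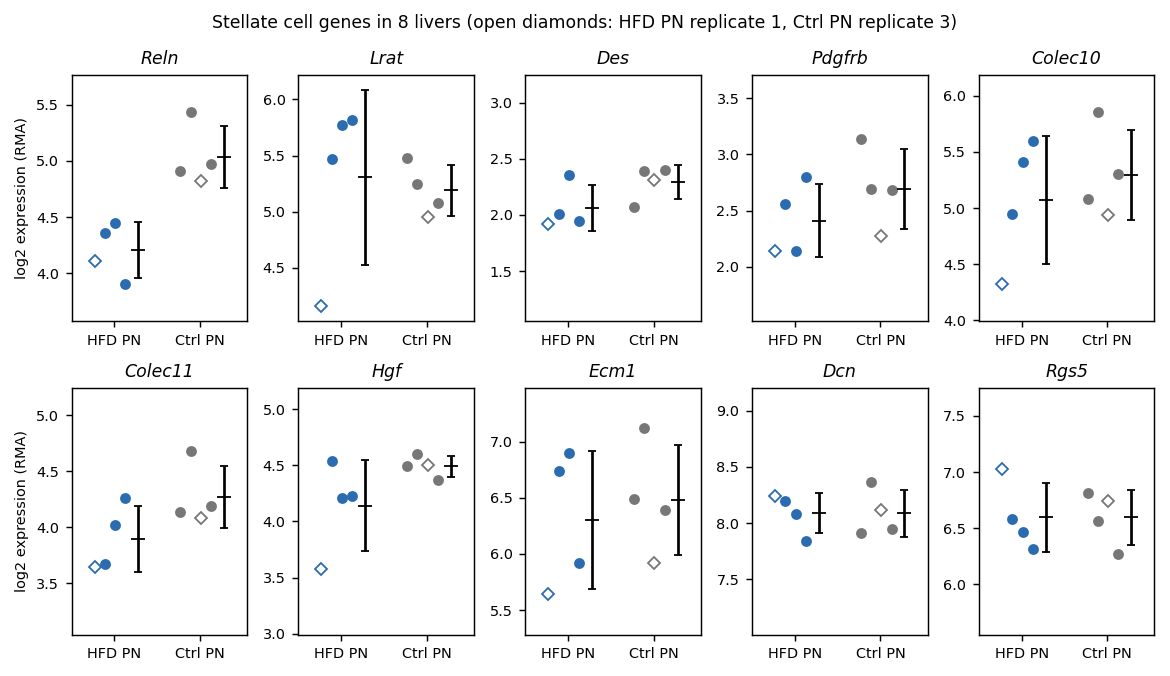
Log2 expression (RMA) of the 10 genes in each liver, with HFD PN (blue) to the left of Ctrl PN (grey), points in replicate order, open diamonds for the arrays that stood apart, bars for mean ± SD (n = 4) and the same axis span in all panels. Reln, chosen for its difference, has no overlap between the groups, with HFD PN livers at 3.90 to 4.45 and Ctrl PN livers at 4.82 to 5.44.

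To show the start of the Reln gene beside that of the gene whose level went most closely with it among the 9 in the deposited values, Ecm1, the 250 bases before each start site are given from RefSeq (build GRCm38.p6). The Reln stretch is chr5:22344706-22344955 and the Ecm1 stretch chr3:95739570-95739819, both on the minus strand and read 5′ to 3′ toward the gene. Capitals mark matches on either strand to the GC box (GGGCGG), the TATA box (TATAAA), the CCAAT box (CCAAT), the E-box CACGTG, the AP-1 site (TGANTCA) and the CArG box, and no matches overlap.
Reln: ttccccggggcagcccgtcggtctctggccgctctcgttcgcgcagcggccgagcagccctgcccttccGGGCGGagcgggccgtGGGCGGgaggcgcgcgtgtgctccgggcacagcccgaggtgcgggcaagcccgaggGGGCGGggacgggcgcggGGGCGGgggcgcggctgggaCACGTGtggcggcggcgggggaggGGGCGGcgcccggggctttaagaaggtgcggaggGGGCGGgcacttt
Ecm1: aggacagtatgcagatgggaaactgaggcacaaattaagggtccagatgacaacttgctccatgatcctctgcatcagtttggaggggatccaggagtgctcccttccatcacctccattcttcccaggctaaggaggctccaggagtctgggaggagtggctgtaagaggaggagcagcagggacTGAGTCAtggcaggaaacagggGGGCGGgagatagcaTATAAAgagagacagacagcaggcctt
The Reln stretch was 80% G or C, a share above that of 98.8% of the 32536 promoters in the table, and held 37 CpG pairs, against a median of 6. It had 6 GC boxes, which 32.97% of promoters hold at least once, and a CACGTG starting 71 bases before the start site, as 6.04% of promoters have. It held no TATA box. The Ecm1 stretch was 54% G or C with 1 CpG, and held a TATA box starting 27 bases before the start site (12.3% of promoters have one), 1 GC box and 1 AP-1 site (6.73% of promoters). In 6 other stretches, of Lrat, Des, Colec11, Hgf (2 start sites) and Rgs5, the G and C share ran from 50.8% to 67.2% and the number of CpG pairs from 3 to 18. The table held 7 of the 10 genes. Such matches are descriptions of letters, and no factor was measured at these sites.

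Of the other 9 genes, 6 had a lower mean and 3 a higher mean in HFD PN than in Ctrl PN livers, and 0 of 9 passed an adjusted p under 0.05 or an unadjusted p under 0.01. Their median log2 difference was -0.22, against -0.02 over all genes, of which 55.9% were negative. The split was 8 lower and 1 higher with quantile normalization (median -0.24) and without both arrays that stood apart (median -0.15), and 6 lower and 3 higher without HFD PN replicate 1 (median -0.14). The groups overlapped for all 9, where 2.1% of all genes were lower and 0.726% higher without overlap. The limma adjusted p of each of the 9 was 0.99988. By an exact permutation test, p was 0.0857 for Des, 0.114 for Hgf, 0.171 for Colec11 and 0.2 for Pdgfrb. By the same test it was 0.6 for Colec10 and above that for Ecm1, Lrat, Dcn and Rgs5. These permutation p-values were not adjusted over the genes.

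The collectins had the largest negative difference of the 9 in Colec11. Colec11 was at 3.65, 3.67, 4.02 and 4.26 in HFD PN replicates 1 to 4, against 4.14, 4.68, 4.08 and 4.19 in Ctrl PN replicates 1 to 4. In all, 3 HFD PN livers lay under all Ctrl PN livers and replicate 4 lay among them. The log2 difference was -0.37 (standard error 0.18), with a two-sided p from an exact permutation test of 0.171, where 4 livers against 4 cannot give less than 0.0286. With each liver left out it ran from -0.49 without HFD PN replicate 4 to -0.24 without Ctrl PN replicate 2. Colec10 was at 4.32, 4.95, 5.41 and 5.60 in HFD PN and at 5.08, 5.86, 4.94 and 5.30 in Ctrl PN livers. The log2 difference was -0.22 (standard error 0.30), and it ran from -0.40 without HFD PN replicate 4 to 0.03 without HFD PN replicate 1, and was -0.04 without Ctrl PN replicate 2. The groups were mixed for this gene, with HFD PN replicate 1 lowest and Ctrl PN replicate 2 highest.
Hgf was at 3.58, 4.54, 4.21 and 4.23 in HFD PN livers, against 4.49, 4.60, 4.50 and 4.37 in Ctrl PN livers. The log2 difference was -0.35 (standard error 0.19), with a two-sided p from an exact permutation test of 0.114. In all, 3 HFD PN livers lay under all Ctrl PN livers, with replicate 1 furthest below, and without that liver the difference was -0.16 (standard error 0.12). The Hgf receptor Met had a difference of -0.03 (standard error 0.27), or of 0.23 without HFD PN replicate 1.
Desmin is the classical marker of stellate cells in rodents, and it also marks muscle. Des was at 1.92, 2.01, 2.36 and 1.95 in HFD PN livers, against 2.07, 2.39, 2.31 and 2.40 in Ctrl PN livers. In all, 3 HFD PN livers were below all Ctrl PN livers and replicate 3 was not. The difference was -0.23 (standard error 0.13), with a two-sided p from an exact permutation test of 0.0857. With each liver left out it ran from -0.34 to -0.19. Pdgfrb had levels of 2.14, 2.56, 2.14 and 2.80 in HFD PN and of 3.14, 2.69, 2.27 and 2.68 in Ctrl PN livers, which overlapped, and a difference of -0.28 (standard error 0.21), which ran from -0.42 without Ctrl PN replicate 3 to -0.13 without Ctrl PN replicate 1 when each liver was left out.
Ecm1 was at 5.64, 6.74, 6.90 and 5.92 in HFD PN livers, against 6.49, 7.12, 5.92 and 6.39 in Ctrl PN livers. High and low livers were found in both groups, and the difference of -0.18 (standard error 0.33) ran from -0.38 without HFD PN replicate 3 to 0.04 without HFD PN replicate 1, and was 0.03 without Ctrl PN replicate 2. Dcn was at 7.84 to 8.24 in HFD PN and at 7.91 to 8.37 in Ctrl PN livers, with a difference of 0.00 (standard error 0.14). Rgs5 was at 6.31 to 7.03 in HFD PN and at 6.27 to 6.81 in Ctrl PN livers, also with a difference of 0.00 (standard error 0.18). HFD PN replicate 1, low for most of these genes, had the highest Rgs5 of all 8 livers, and Rgs5 was at -0.14 without it.
Lrat, the enzyme that defines the vitamin A store of the stellate cell, had the highest mean difference of the 10. It was at 4.16, 5.47, 5.77 and 5.82 in HFD PN replicates 1 to 4, against 5.48, 5.25, 4.95 and 5.08 in Ctrl PN replicates 1 to 4. HFD PN replicates 3 and 4 were above all Ctrl PN livers and replicate 1 was below them all, 1.53 under the mean of the other HFD PN livers. With all livers the difference was 0.11 (standard error 0.34). Without HFD PN replicate 1 it was 0.50 (standard error 0.15, limma adjusted p = 0.44), and without this array and Ctrl PN replicate 3 it was 0.42 (standard error 0.14). HFD PN replicate 4 had the lowest Reln and the highest Lrat of all 8 livers.

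**Figure D2:**
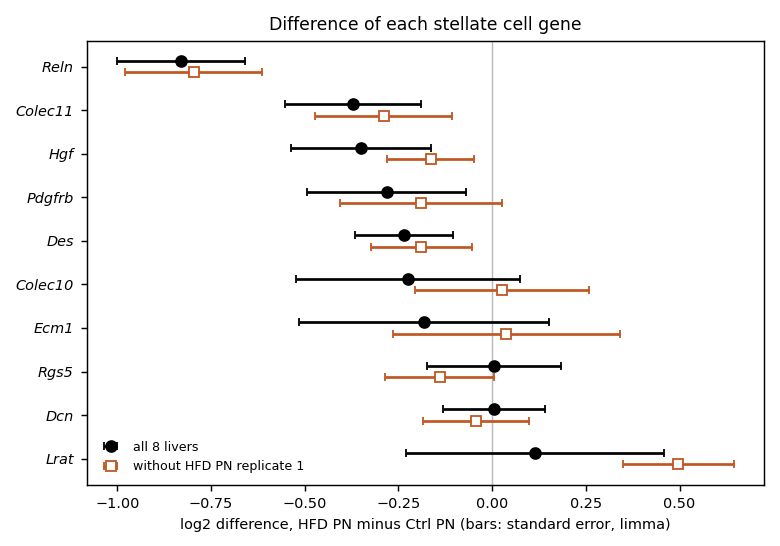
Log2 difference of each gene, HFD PN minus Ctrl PN, with its limma standard error, over all 8 livers (black circles) and without HFD PN replicate 1 (open orange squares). Reln lies at -0.83 and -0.80, while Lrat lies at 0.11 and 0.50 and Colec10, Ecm1, Dcn and Rgs5 change sign.

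Whether Reln fell with the other stellate cell genes was examined liver by liver. The mean of the other 9 genes was 4.88 ± 0.24 in HFD PN and 5.04 ± 0.18 in Ctrl PN livers (SD, n = 4 each), a difference of -0.17. Relative to the Ctrl PN mean, Reln was at -0.93, -0.67, -0.58 and -1.13 in HFD PN replicates 1 to 4, whereas the mean of the other 9 was at -0.52, -0.07, -0.00 and -0.07. In HFD PN replicates 2, 3 and 4 this mean of 9 was inside the range of the Ctrl PN livers, which ran from -0.17 to 0.24. Single genes in these livers lay on both sides of their Ctrl PN means, with Colec11 at 3.67 in HFD PN replicate 2 against a Ctrl PN mean of 4.27, and Lrat at 5.82 in HFD PN replicate 4 against a Ctrl PN mean of 5.19. Only in HFD PN replicate 1, the array on which genes of middle level were low in general, was their mean below all Ctrl PN livers. The gap between Reln and the other 9 differed by -0.66 between HFD PN and Ctrl PN livers, and by -0.75 without HFD PN replicate 1. This gap has no test, because Reln was chosen for its part in it.

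**Figure D3:**
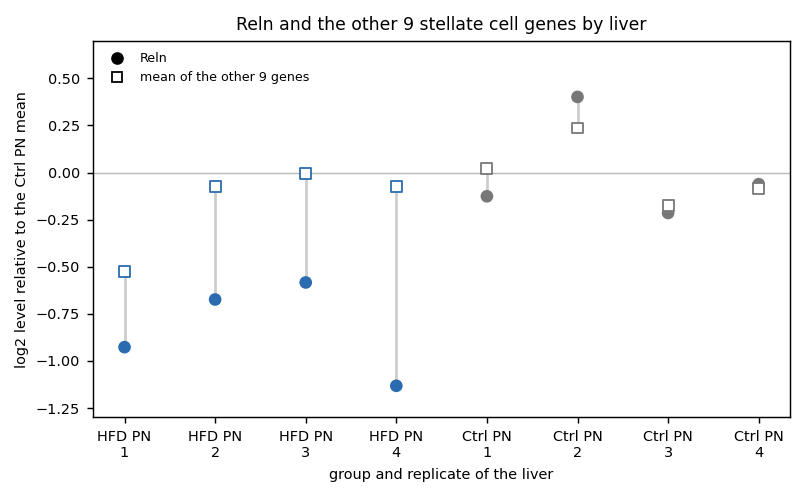
Log2 level of Reln (filled circles) and mean log2 level of the other 9 genes (open squares) in each liver, both relative to their Ctrl PN means, with grey lines joining them. Reln is at -0.58 to -1.13 in HFD PN livers, and the other genes leave the Ctrl PN range, -0.17 to 0.24, only in HFD PN replicate 1, at -0.52.

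A second view does not use the difference by which Reln was picked. Each liver's deviation from its own group mean was taken, and the deviations of Reln were correlated with those of each of the other 9 genes over the 8 livers, with an exact permutation of livers within groups (two-sided) and adjustment over these 9 relations. Ecm1 was the closest to Reln (Pearson's r = 0.89, exact permutation p = 0.0191, adjusted p = 0.172, and Spearman's rho = 0.79, exact permutation p = 0.0503, adjusted p = 0.453). A value of r above that of Ecm1 was found for 0.216% of all genes. Livers with much Ecm1 for their group, HFD PN replicates 2 and 3 and Ctrl PN replicate 2, were those with much Reln. Leaving out the livers farthest from the median Reln deviation, HFD PN replicate 3 and Ctrl PN replicate 2, gave r = 0.75, while leaving out the arrays that stood apart gave r = 0.98, median centring gave r = 0.92 and quantile normalization gave r = 0.38, where Dcn was closest to Reln (r = 0.91). The relation did not pass the adjustment over 9.
Dcn and Des followed, with r = 0.70 and rho = 0.62 for Dcn (exact permutation p = 0.101 and 0.153, adjusted p = 0.339 and 0.469) and r = 0.60 and rho = 0.60 for Des (exact permutation p = 0.113 and 0.156, adjusted p = 0.339 and 0.469). Without the same 2 farthest livers, r was 0.57 for Dcn and 0.15 for Des. For the remaining 6 genes r ran from -0.19 for Pdgfrb to 0.40 for Colec10, and the lowest adjusted p was 0.776. The median r over the 9 genes was 0.34, against 0.01 over all genes. All genes include dim ones, whereas each of the 9 lay above the median of all array values. The part of this unlike level in the contrast was not tested. HFD PN replicate 4, with Reln lowest and the collectins highest for its group, weighed heavily in these values. Without it, r with Reln was 0.93 for Colec10 and 0.93 for Colec11 (exact permutation over 7 livers, adjusted p = 0.0312 for both) and 0.90 for Ecm1 (adjusted p = 0.0417). This liver was named from these same Reln and collectin values, so that nothing is read from these p-values. With any other single liver left out, the lowest adjusted p by the same permutation was 0.125, for Ecm1 without HFD PN replicate 1. The collectins went the other way when different livers were left out, with r = 0.01 for Colec10 and -0.37 for Colec11 without Ctrl PN replicate 2, and r = -0.30 for Colec10 and -0.65 for Colec11 without the 2 farthest livers.
Among the 36 pairs that do not include Reln, the collectins Colec10 and Colec11 were the closest (r = 0.91 and rho = 0.93, exact permutation p = 0.00174 for both, the smallest that these permutations can give, and adjusted p = 0.0625 over 36 pairs). The pair kept r = 0.94 without the livers farthest from the median Colec10 deviation, HFD PN replicate 1 and Ctrl PN replicate 2, and r = 0.98 without the arrays that stood apart. No pair passed an adjusted p under 0.05, and 2 of 36 had an unadjusted p under 0.05. The median r of the 36 pairs was 0.27, and 0.17 without the arrays that stood apart. For Colec10 and Colec11, r was 0.94 with median centring and 0.56 with quantile normalization. A shift of a whole array moves many genes of a liver at once, and its part in these values was not tested.

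**Figure D4:**
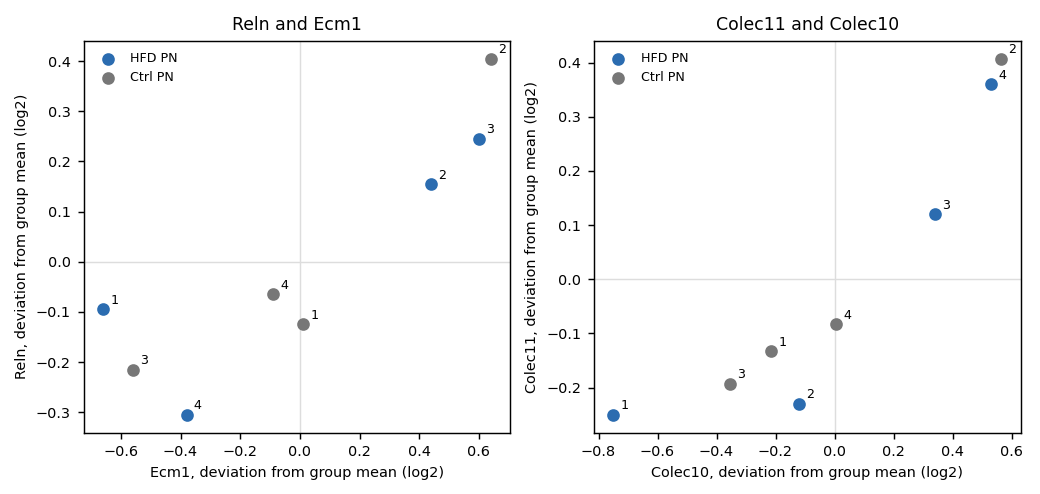
Deviation of each liver from its group mean (log2) for Reln against Ecm1 (left) and for Colec11 against Colec10 (right), with HFD PN in blue, Ctrl PN in grey and replicate numbers beside the points. Pearson's r over the 8 livers is 0.89 on the left and 0.91 on the right.

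Over 11624 named genes with a mean above the median of all array values, those whose within-group deviations were most like those of Reln were Col1a2 (r = 0.98), Peg3 (r = 0.945), Gstp1 (r = 0.935), Hpf1 (r = 0.935) and Dusp8 (r = 0.93), each over 8 livers and given as a description with no test. These genes were ranked by this same r, so that nothing is read from its height. Col1a2, a chain of type I collagen, was at 1.75, 1.96, 1.92 and 1.55 in HFD PN livers, against 1.89, 2.26, 1.85 and 1.95 in Ctrl PN livers. It followed Reln within each group, with HFD PN replicate 4 lowest and Ctrl PN replicate 2 highest, but its difference of -0.19 (standard error 0.13) was smaller than that of Reln and the groups overlapped. Peg3 had a difference of 0.20 (standard error 0.12), of the opposite sign. Most of these genes were dim, and Col1a2 in HFD PN replicate 4, at 1.55, was at the median of all array values. The abundant Gstp1, a glutathione transferase, had a difference of -0.12 (standard error 0.16).

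Reelin signals through receptors and adaptors that were measured too. As background for the counts of lower genes in these lists, 55.9% of all genes had a lower mean in HFD PN livers. This share was 52.5% without HFD PN replicate 1 and 51.6% without both arrays that stood apart. Of 8 measured genes of the reelin pathway, 2 were lower and 6 higher in HFD PN livers, with 0 past an unadjusted p under 0.01 and a median log2 difference of 0.04, which ran from -0.02 to 0.09 with each liver left out. The receptor Lrp8 had a difference of 0.04 (standard error 0.09). Vldlr averaged 1.35 in HFD PN and 1.26 in Ctrl PN livers and Dab1 1.26 in HFD PN and 1.19 in Ctrl PN livers, both under the median of all array values and not shown to lie above background.
Genes of retinoid storage and use, which surround Lrat, had a median difference of 0.11 over 11 measured genes, 7 of them higher and 4 lower. Without HFD PN replicate 1 the median was 0.25 with 10 of 11 higher, and without this array and Ctrl PN replicate 3 it was 0.07 with 8 of 11 higher. The median was -0.0034 without Ctrl PN replicate 2 and -0.002 without Ctrl PN replicate 3. Rbp4, the carrier of retinol in plasma, had a difference of -0.04 (standard error 0.09).
The other ligands and the other receptor of the PDGF family all had a lower mean in HFD PN, 5 of 5, with a median of -0.09 (4 of 5 without HFD PN replicate 1, and a median of -0.18 to -0.07 with each liver left out). Pdgfra, the sister receptor of Pdgfrb, was at 2.03, 2.37, 2.42 and 2.33 in HFD PN livers, against 2.38, 2.71, 2.96 and 2.62 in Ctrl PN livers, with a difference of -0.38 (standard error 0.14), and of -0.20 without the arrays that stood apart. Pdgfb, the main ligand of Pdgfrb, had a difference of -0.06 (standard error 0.09). The groups did not overlap for Pdgfd, a further ligand of this receptor named after its values were seen, where 2.1% of all genes were lower without overlap. HFD PN livers were at 1.37 to 1.54 and Ctrl PN livers at 1.55 to 2.01. The groups all but touched, with HFD PN replicate 2 at 1.538 and Ctrl PN replicate 2 at 1.547. All HFD PN livers and Ctrl PN replicate 2 lay under the median of all array values.
For the HGF and Met genes, 5 of 8 were lower with a median of -0.05 (2 of 8 lower and a median of 0.14 without HFD PN replicate 1, and a median of -0.12 without HFD PN replicate 3), and Hgfac, the protease that activates HGF, had a difference of -0.19 (standard error 0.42), or of 0.26 without HFD PN replicate 1. Among 4 measured collectins and MASPs beside Colec10 and Colec11, 2 were lower and 2 higher with a median of -0.12. The median was 0.07 with 0 of 4 lower without HFD PN replicate 1, -0.30 without Ctrl PN replicate 3, and -0.10 with 3 of 4 lower without both. Masp1, a protease of the lectin pathway, was at -0.31 (standard error 0.37), or at 0.06 without HFD PN replicate 1 and -0.16 without both, and Mbl2, a mannose-binding lectin, was at 0.07 (standard error 0.20), or at -0.07 without both.

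Other stellate cell genes had a lower mean in HFD PN for 16 of 21 measured, with a median difference of -0.10 (14 of 21 and -0.05 without HFD PN replicate 1, 12 of 21 and -0.13 without both arrays that stood apart, and -0.18 without HFD PN replicate 2). For this list and the next, the share of all genes with a lower mean was 55.9%. It was 52.5% without HFD PN replicate 1 and 51.6% without both arrays, so that 12 of 21 was near it. Of the 21, 2 passed an unadjusted p under 0.01 as lower, Abcc9 and Gdf2, where 0.361% of all genes did and where Gdf2 was already known as lower in these arrays when the list was written. Neither passed over all genes (limma adjusted p = 0.99988). Abcc9, the regulatory subunit of a potassium channel of mural cells, was at 4.52, 4.98, 4.90 and 4.58 in HFD PN replicates 1 to 4, against 5.06, 5.45, 5.12 and 5.26 in Ctrl PN replicates 1 to 4. The groups did not overlap, and HFD PN replicates 1 and 4, the livers with the least Reln, had the least Abcc9. Genes of middle level were low in general on HFD PN replicate 1, and the likeness of Abcc9 to Reln was not tested. Of the 21 genes, 2 were lower without overlap, Abcc9 and Gdf2, where 2.1% of all genes were. Abcc9 had a difference of -0.48 (standard error 0.14), and of -0.44 without the arrays that stood apart. Kcnj8, the pore subunit of the same channel, named after its values were seen, had a difference of 0.09 (standard error 0.14), or of -0.01 without HFD PN replicate 1. Gdf2, or BMP9, a growth factor of the sinusoid, was at 2.32, 2.46, 2.31 and 2.57 in HFD PN livers, against 3.05, 3.12, 3.13 and 2.62 in Ctrl PN livers. The groups did not overlap, but replicate 4 of each group lay close to the other, at 2.57 and 2.62. Gdf2 had a difference of -0.56 (standard error 0.13). Gfap, an intermediate filament of stellate cells, had a difference of -0.22 (standard error 0.10) at a level under the median of all array values. Vim, which encodes vimentin, had a difference of 0.09 (standard error 0.18), and Cygb, a globin that marks stellate cells, of 0.01 (standard error 0.12).
Genes of the activated stellate cell and its matrix had a lower mean for 19 of 24 measured, with a median of -0.11 (15 of 24 and -0.08 without HFD PN replicate 1, 16 of 24 and -0.09 without both arrays that stood apart, -0.21 without Ctrl PN replicate 3 and -0.06 without Ctrl PN replicate 2) and 0 past an unadjusted p under 0.01. Col3a1, the chain of type III collagen, was at 1.85, 2.23, 2.07 and 2.09 in HFD PN livers, against 2.31, 2.26, 2.67 and 2.58 in Ctrl PN livers, so that the groups did not overlap, by 0.03. Its difference was -0.40 (standard error 0.13), and -0.25 without the arrays that stood apart. Col5a1, named after its values were seen, was the other of 2 genes of this list lower without overlap, where 2.1% of all genes were, at 1.46 to 1.75 in HFD PN and 1.79 to 2.23 in Ctrl PN livers. Col1a1 had a difference of -0.24 (standard error 0.19), or of -0.09 without HFD PN replicate 1, Timp1, an inhibitor of matrix proteases, of -0.15 (standard error 0.11) and Tgfb1 of -0.02 (standard error 0.27), or of 0.09 without HFD PN replicate 1 and -0.19 without both arrays that stood apart. Acta2, the smooth muscle actin of activated stellate cells and of vessels, averaged 3.56 ± 0.63 in HFD PN and 3.004 ± 0.31 in Ctrl PN livers (SD, n = 4 each), highest in HFD PN replicate 2 at 4.37. The groups overlapped, and the log2 difference of 0.56 (standard error 0.30) had the opposite sign to that of Reln.

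Markers of other liver cell types are given beside these lists. Over all genes, 55.9% had a lower mean in HFD PN livers, 52.5% without HFD PN replicate 1 and 51.6% without both arrays that stood apart. Sinusoidal endothelial markers had a lower mean in HFD PN for 9 of 10, with a median of -0.19. Their mean log2 level ran from 4.03 to 4.64 in HFD PN and from 4.27 to 4.78 in Ctrl PN livers, and the median difference was -0.03 with 6 of 10 lower without HFD PN replicate 1, -0.34 without Ctrl PN replicate 3, and -0.09 with 8 of 10 lower without both. Kupffer cell markers had a lower mean for 9 of 10, with a median of -0.24 (-0.11 with 8 of 10 lower without HFD PN replicate 1, -0.09 with 6 of 10 lower without both arrays that stood apart, and -0.37 without HFD PN replicate 4), and their mean level ran from 4.06 to 4.78 in HFD PN and from 4.38 to 4.62 in Ctrl PN livers. Hepatocyte markers had a median of -0.01 (-0.05 to 0.07 with each liver left out), with mean levels of 10.2 to 10.6 in HFD PN and 10.2 to 10.5 in Ctrl PN livers. No gene of these 3 lists passed an unadjusted p under 0.01, and all of their members lay above the median of all array values. The mean level of the sinusoidal endothelial markers was lowest in HFD PN replicate 1. The part of these cell types in the values of Reln and of the other stellate cell genes was not tested.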

How the data were processed

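Total RNA of 8 livers (4 HFD PN and 4 Ctrl PN) was hybridised to Affymetrix Mouse Gene ST arrays. The deposited values are log2 expression that the authors made with RMA in R 3.4.3 (version and tool from the submitters' processing notes), which corrects background, equalises probe signals between arrays and summarises each transcript cluster. Which build and annotation release defined the transcript clusters is not stated in the sources used. Of 41345 rows, 23521 named 1 gene through the platform annotation (23328 updated by gene identifier with RefSeq), 1820 named several and 16004 were unnamed there. Where a gene had several rows (1082 genes) the row of the highest mean was kept, giving 22180 genes.
HFD PN and Ctrl PN were compared in R 4.3.3 by lmFit and eBayes of limma 3.58.1, with no covariates and no filter, with Benjamini-Hochberg adjustment over all genes, and with the unadjusted threshold of 0.01 of the paper. At that threshold the paper, which names no test for its array counts, reports more genes increased than decreased in HFD PN males. The main fit here had the reverse balance, with 80 genes lower and 43 higher, and the cause was not tested. Correlations used deviations from group means and all 576 permutations within groups, in Python 3.11.15. The procedures were tested on simulated data. Arrays have no read depth, and their number limits the precision.
The 10 genes and all gene lists were chosen with earlier results of these data known. Genes named beside the 10 were key members of each list picked by function, every list gene at an unadjusted p under 0.01, and the 5 genes most like Reln. Pdgfd, Kcnj8, Col5a1 and Bmp10 were added after their values were seen. Lists covered the reelin pathway, retinoid storage and use, PDGF, HGF and Met, collectins and MASPs, other stellate genes, activated stellate and matrix genes, sinusoidal endothelium, Kupffer cells, hepatocytes, cholangiocytes, portal fibroblasts and vascular smooth muscle. Alternatives were the mean of all rows of a gene, median centring, quantile normalization, dim genes left out, array weights, a variance model both trended and robust, a block for the replicate number, an ordinary t-test, every row named or not, and each liver left out. The paper names t-tests for its other results and not for the arrays. Leaving out both arrays that stood apart was added after seeing the data.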

Additional observations from a re-analysis of the deposited data

Results flagged for a closer look

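The mean log2 level of the 9 stellate cell genes other than Reln was 4.52 in HFD PN replicate 1, far below the other HFD PN livers at 4.97 to 5.04. Its gap to the next liver was 0.864 of the whole range, above Dixon's critical value for 4 samples. In all, 24 sets of 4 livers were examined this way, and chance alone picks out about 1 in 20. No single gene of the 10 was picked out in either group.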

How the results depend on the processing

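With each liver left out, Reln ran from -0.91 to -0.70 and its gap to the other 9 genes from -0.75 to -0.53. The groups overlapped for neither, so that leaving out a liver could not change the sign. Reln kept its direction under the other alternatives too, and since it was chosen for this difference nothing is read from that. With all livers limma called 80 genes as lower and 43 as higher at an unadjusted p under 0.01. These counts were 48 and 52 with median centring, 21 and 18 with dim genes left out, 111 and 21 with a trended and robust variance, 185 and 241 with array weights, 144 and 51 by an ordinary t-test (1 gene at an adjusted p under 0.05, against 0 by limma, where 774 genes had an unadjusted p under 0.05), 167 and 109 over every row named or not, and 121 and 375 without both arrays that stood apart. With each liver left out they ran from 36 to 99 lower (36 without HFD PN replicate 4, 51 without replicate 3 and 52 without replicate 2) and from 14 to 393 higher (393 without HFD PN replicate 1, 14 without replicate 4, 21 without Ctrl PN replicate 1 and 18 without Ctrl PN replicate 3). The replicate numbers did not pair the livers (correlation of same-numbered deviations -0.30, 0.29, -0.41 and 0.16), and the replicate block gave 41 lower and 32 higher genes, with Reln at -0.83.
Differences near 0 changed sign. With each liver left out, Lrat ran from -0.0575 to 0.50, Colec10 from -0.40 to 0.0262, Ecm1 from -0.38 to 0.038, Dcn from -0.054 to 0.10 and Rgs5 from -0.14 to 0.10. Dcn was at -0.0201 and Rgs5 at -0.0608 with quantile normalization, at -0.0372 and -0.11 with array weights, and at -0.03 and -0.09 without both arrays that stood apart. The correlation with Reln was -0.71 for Lrat, -0.13 for Colec10 and 0.61 for Rgs5 with quantile normalization, and -0.33 for Lrat, -0.7375 for Pdgfrb and 0.23 for Rgs5 without both arrays. With each liver left out it ran from -0.02 to 0.51 for Lrat, from -0.55 to 0.15 for Pdgfrb, from -0.37 to 0.93 for Colec11 and from -0.49 to 0.06 for Rgs5. The median of the portal fibroblast list was 0.0778 with dim genes left out. The cause of these changes was not tested. The number of livers, 4 per group, limits all of these values, and levels near 1.55 are not shown to lie above background.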

Other observations

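Portal fibroblast markers had a median log2 difference (HFD PN minus Ctrl PN) of -0.13 over 7 genes (5 lower), vascular smooth muscle markers of -0.02 over 6 genes (4 lower) and cholangiocyte markers of 0.01 over 6 genes (3 lower), with 0 past an unadjusted p under 0.01 in each. With each liver left out these medians ran from -0.18 to -0.07 for portal fibroblast, from -0.10 to 0.05 for vascular smooth muscle and from -0.05 to 0.08 for cholangiocyte markers. Bmp10, a close relative of Gdf2 that stellate cells also make, was at 1.88, 2.87, 2.50 and 2.93 in HFD PN livers, against 2.26, 2.51, 2.41 and 1.83 in Ctrl PN livers. Its log2 difference, 0.29 (standard error 0.25), had the opposite sign to that of Gdf2. Bmp10 was named after its values were seen. The second row of Rgs5 was at 1.86 to 2.33 in HFD PN and at 1.96 to 2.39 in Ctrl PN livers.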
